A study of Mus musculus with 6 samples.

Results

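Bex2, Bex4, Cox6a2, Nrn1, Snhg11 and Cst8 are 6 of the 31055 features counted in single cells from mouse lung tumors. They were selected on measured values of these same cells, since an earlier description of the matrix showed them high in cells with the transcripts of alveolar type II (ATII) cells. Each symbol matched 1 row of the matrix, and all 6 had UMIs (unique molecular identifiers, which count captured RNA molecules). Levels and differences between the cell classes below are therefore a description of how these genes were chosen and how they vary, and carry no test.

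The study asked how restoring the tumor suppressor Lkb1 (mouse gene Stk11) changes the neoplastic cells of established lung tumors. Of the 6 mice, 4 were male and 2 were female. All 6 mice carried Lkb1XTR/XTR and Rosa26LSL-tdTomato, and tumors were started with lentiviral Cre given into the trachea and grown for 20 weeks. Cre switches on the red reporter and inverts the XTR cassette, a gene trap that ends the Lkb1 transcript early and makes GFP in its place. The 3 mice labelled Restored also carried a tamoxifen-activated FLPo-ERT2 recombinase at Rosa26 that deletes the trap, and received tamoxifen in 4 mg doses over 2 weeks. Of the 3 mice labelled NonRestored, 1 lacked FLPo-ERT2 and received tamoxifen, 1 lacked it and received vehicle, and 1 carried it and received vehicle. Tumor cells were sorted after cells with blood or endothelial surface markers had been set aside. The matrix used here pools the cells of all mice with no record of the mouse of each cell, so it was handled as 1 sample, and Restored and NonRestored mice were not compared here. No value has a replicate, and every interval given is a 95% interval for counting error only.

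Of 16017 cells, 13936 had at least 500 detected genes, and 12183 of these had at most 20% mitochondrial UMIs and were kept. They held 257163522 UMIs, with a median of 19348 and a range of 671 to 125731 per cell. The 8104 cells with at least 500 Sftpc UMIs per 10000 and low Hopx and keratin are called Sftpc-high. They were split at 100 Lyz2 UMIs per 10000 into 3600 Lyz2-high and 4504 Lyz2-reduced cells. The 1715 comparison cells had at least 15 Hopx UMIs or at least 50 Krt8 and Krt18 UMIs per 10000, and 424 cells met both sets of minima and were kept apart. Within Sftpc-high cells, 2062 held a GFP UMI and no Stk11 UMI (GFP cells) and 2698 held a Stk11 UMI and no GFP UMI (Stk11 cells), while 18 held both and 3326 held neither. These transcript classes describe cells and do not stand for mice or treatments. The median UMI count was 25468 in GFP cells, 24842 in Stk11 cells and 15966 in cells with neither transcript, so the last class holds many shallow cells.

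ATII cells make pulmonary surfactant and store it in lamellar bodies, and they renew the flat type I (ATI) cells of the alveolus through a keratin-rich transitional state. Lysozyme, encoded by Lyz2, is a marker of mature ATII cells in mice, and ATII cells are a known origin of lung adenocarcinoma. The label of the Sftpc-high cells was checked on marker lists. All 12 ATII markers were at least 2-fold higher in Sftpc-high than in the comparison cells, and all 10 ATI markers and all 7 transitional markers were at least 2-fold lower, as were 15.9% of all genes. Because Sftpc, Hopx, Krt8 and Krt18 defined the classes, this is a check and not a result.

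The 6 genes were grouped by their levels and not by a known shared role in the alveolus. Bex2 and Bex4 belong to the brain-expressed X-linked family, small adaptor proteins that lie in 1 cluster with the related Tceal genes. Cox6a2 encodes the heart and skeletal muscle form of a subunit of cytochrome c oxidase, the last complex of the respiratory chain, and Cox6a1 encodes the form found in most tissues. Nrn1 encodes neuritin, a small protein on the surface of neurons that promotes neurite growth. Snhg11 is a host transcript for small nucleolar RNAs (snoRNAs). Cst8 encodes a cystatin-related protein known from the epididymis and testis.

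On the mouse build GRCm38 (mm10), Bex2 lies on the minus strand at chrX:136066564-136068236 and Bex4 on the plus strand at chrX:136138996-136140443. They are 70759 bases apart, with Nxf3 and 5730412P04Rik between them, and Nxf3 had no UMI in Sftpc-high cells. Cox6a2 lies on the minus strand at chr7:128205435-128206387 and overlaps Itgad on the other strand, which had 1 UMI in all Sftpc-high cells. Nrn1 lies on the minus strand at chr13:36725361-36735131 and overlaps Fars2 and Gm30177 on the other strand. Fars2 was at 21.1 CPM (counts per 1000000, here the share of a cell class's summed UMIs that fell on the gene) in Sftpc-high and 23.8 in comparison cells. Snhg11 spans chr2:158375638-158386145 on the plus strand with 2 snoRNA genes inside it, and Cst8 spans chr2:148798785-148805595 on the plus strand. Of 411 windows of 90 bases near the 3′ end of Bex2, 19 also occur in Bex1, and for Bex4 41 of 411 occur in the pseudogenes Gm12245 or Gm4322. Reads from those windows cannot be placed with certainty, and Bex1 itself was at 4.95 CPM in Sftpc-high cells.

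RefSeq promoter windows on GRCm38.p6, from 250 bases before to 50 after the start, were given for 4 of the 6 genes and are shown because these genes were all higher in Sftpc-high than in comparison cells. Cox6a2 and Nrn1 had no entry. Capitals mark matches to 5 motifs that were chosen with the sequences in view, and positions are bases before the start. Bex2 (chrX:136068187-136068486, minus strand) and Bex4 (chrX:136138746-136139045, plus strand) each hold TGACG, the core of a cAMP response element, at 47 and 21 bases before the start. In Bex4 those letters are part of TGACGCAA, and the E-box CACGTG follows at 9 bases before the start. Snhg11 (chr2:158375463-158375762, plus strand) holds the palindromic C/EBP motif TTGCGCAA at 102 bases before the start. Cst8 (chr2:148798589-148798888, plus strand) holds TGATGNAA, the core of a composite C/EBP and ATF motif, on its minus strand at 75 bases before the start.
Bex2 promoter: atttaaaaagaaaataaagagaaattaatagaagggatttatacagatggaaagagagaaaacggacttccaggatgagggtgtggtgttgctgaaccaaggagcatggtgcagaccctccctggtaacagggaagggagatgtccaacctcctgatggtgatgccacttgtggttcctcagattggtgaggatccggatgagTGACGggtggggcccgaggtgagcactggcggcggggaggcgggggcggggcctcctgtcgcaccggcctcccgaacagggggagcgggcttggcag
Bex4 promoter: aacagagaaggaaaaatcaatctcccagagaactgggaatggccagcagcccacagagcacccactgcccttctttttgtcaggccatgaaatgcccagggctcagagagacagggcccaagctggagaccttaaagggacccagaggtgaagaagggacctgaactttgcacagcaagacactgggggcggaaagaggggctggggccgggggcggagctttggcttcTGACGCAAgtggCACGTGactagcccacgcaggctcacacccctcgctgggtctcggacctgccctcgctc
Snhg11 promoter: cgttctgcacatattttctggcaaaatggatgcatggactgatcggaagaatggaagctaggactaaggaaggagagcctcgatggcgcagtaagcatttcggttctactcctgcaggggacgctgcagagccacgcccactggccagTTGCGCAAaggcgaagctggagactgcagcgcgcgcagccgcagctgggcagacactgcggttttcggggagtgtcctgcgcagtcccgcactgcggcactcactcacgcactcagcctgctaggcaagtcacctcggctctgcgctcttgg
Cst8 promoter: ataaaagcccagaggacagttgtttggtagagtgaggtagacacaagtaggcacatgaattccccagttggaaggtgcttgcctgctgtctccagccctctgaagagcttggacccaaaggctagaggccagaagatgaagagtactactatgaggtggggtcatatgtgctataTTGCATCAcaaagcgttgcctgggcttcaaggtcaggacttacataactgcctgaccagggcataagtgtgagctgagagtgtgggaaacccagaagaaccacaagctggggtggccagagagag

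On either strand, TGACG occurred in 20.8%, CACGTG in 7.15%, TGATGNAA in 3.97%, TGACGCAA in 0.49% and TTGCGCAA in 0.183% of 32851 promoter windows of this length. Because the motifs were chosen with these 4 windows in view, the shares do not test the matches. No motif was shared by all 4 windows. The Snhg11 window held 21 CpG sites and the Cst8 window 1, against a median of 7 over all windows.

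All 6 genes were far higher in Sftpc-high than in comparison cells. At least 2-fold higher levels were found for 6 of 6, against 6.57% of the 12198 genes with enough UMIs, and this contrast is the one that chose them. Measured from the median log2 ratio of all genes, -0.40, it was again 6 of 6, against 10.2%. Bex2 was at 201 CPM (199 to 203) in Sftpc-high and 4.28 (3.62 to 5.03) in comparison cells, a ratio of 47.0 (40.0 to 55.6). Cox6a2 was at 119.98 against 6.21 CPM, a ratio of 19.3 (16.9 to 22.2). Nrn1 was at 111 against 7.62, a ratio of 14.6 (13.0 to 16.6). The less abundant genes behaved alike: Bex4 was at 30.5 against 2.19 CPM, a ratio of 14.0 (11.1 to 17.8). Snhg11 was at 29.7 against 1.90, a ratio of 15.6 (12.3 to 20.2). Cst8 had 9082 UMIs in Sftpc-high and 10 in comparison cells, which gives 48.8 against 0.288 CPM and a ratio of 169.7 (92.2 to 354). On the log2 scale that is 7.41, and it was 5.48 with the Sftpc minimum at 1000, where cells with less Sftpc and with Hopx or keratin count as comparison cells. With the comparison limited to cells past the Hopx minimum, the log2 ratio of Snhg11 was 2.97 instead of 3.97, that of Bex4 3.09 instead of 3.81 and that of Nrn1 4.52 instead of 3.87. Without the 1% of cells with the most UMIs of the gene, it was 5.85 for Snhg11, 5.09 for Bex4 and 5.18 instead of 4.27 for Cox6a2. In the comparison cells the 10 Cst8 UMIs lay in 10 different cells.

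Within the comparison class, Hopx cells and keratin cells were both low in every gene. The 697 cells past the Hopx minimum alone had 5.73 Bex2 CPM and the 912 past the keratin minimum alone had 3.93. Bex4 was at 4.33 in Hopx and 1.59 in keratin cells, and Nrn1 turned the other way, with 4.79 in Hopx and 8.79 in keratin cells. The 424 cells with both Sftpc and Hopx or keratin sat between the classes for all 6 genes, at 46.1 CPM for Bex2 and 11.4 for Cst8. The 114 cells just below the Sftpc minimum had 40.1 Bex2 CPM and the 106 just above it had 45.9. Across the same limit Cox6a2 was at 14.7 and 27.4, Snhg11 at 6.02 and 15.9, and Cst8 at 6.69 and 12.1 CPM. Bex2 was at 21.9 in the 83 cells just below and 15.1 in the 75 just above the Hopx minimum, and at 8.07 and 16.5 in the 174 and 147 cells at the keratin minimum.

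**Figure D1:**
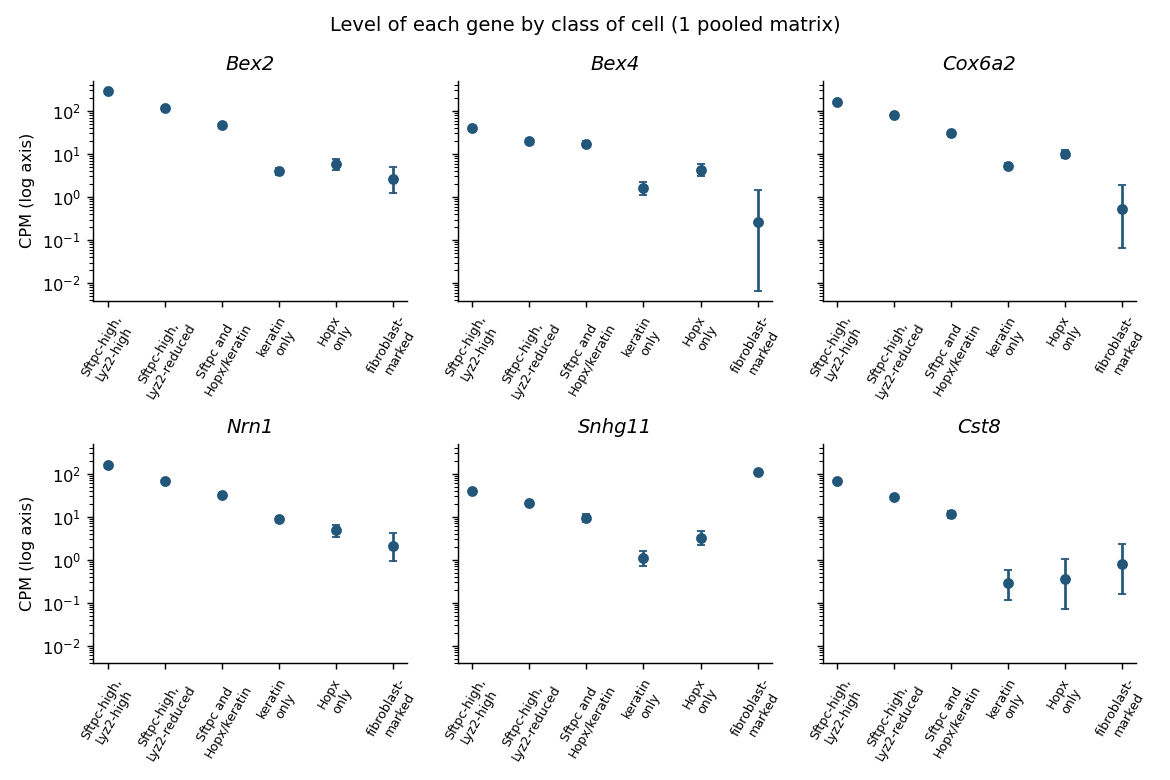
Level of each gene, in CPM on a log axis, in 6 classes of cell from the pooled matrix. Points are class totals and bars are exact Poisson intervals for counting error; all 6 genes are higher in both Sftpc-high classes than in keratin or Hopx cells, and Snhg11 alone is high in fibroblast-marked cells, at 110.1.

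The ratios were also placed among those of all genes. In the contrast with Hopx or keratin cells, 6 genes had a larger ratio than Cst8 and 87 had a larger ratio than Bex4. This contrast chose the 6 genes, so their places in it describe that choice. The median log2 ratio was 4.12 over the 6 genes and -0.40 over all 12198.

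**Figure D2:**
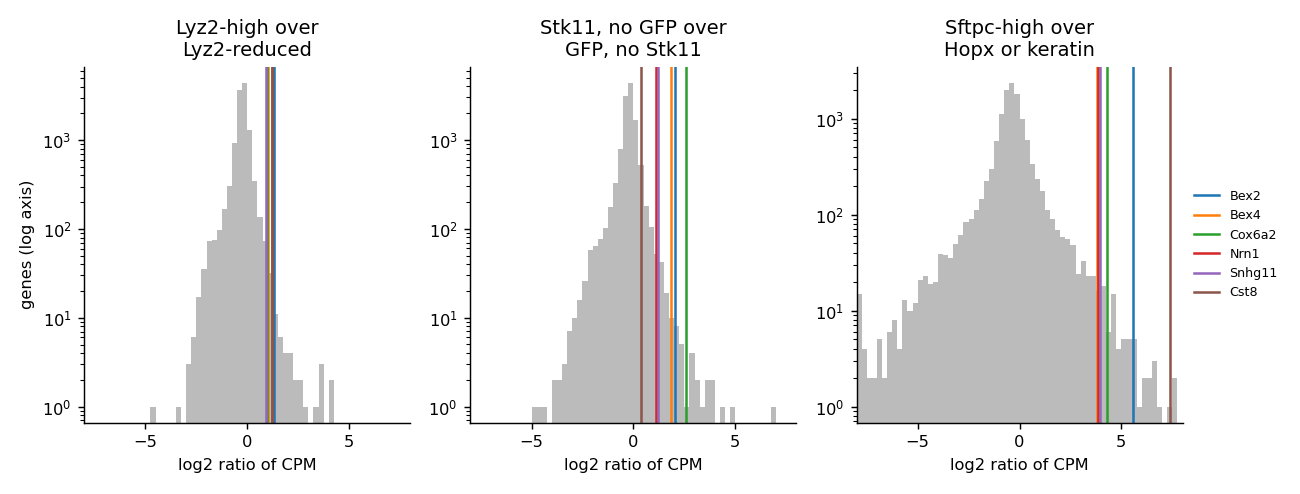
Distribution of log2 ratios of CPM over all genes with enough UMIs in 3 contrasts (grey bars, number of genes on a log axis), with a colored line for each of the 6 genes. Genes beyond -8 or 8 are counted in the outermost bars, and genes with no UMI in 1 of the classes compared are not drawn. The lines lie to the right of most genes in each contrast, with Cst8 the nearest to 0, at 0.38, in the contrast of Stk11 over GFP cells.

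The UMIs of these genes were spread unevenly over Sftpc-high cells. Bex2 UMIs were found in 57.9% of Sftpc-high cells, although an even spread at the same level and depth would have put them in 93.6%. For Bex4 the shares were 15.02% and 47.0%. Cox6a2 was found in 45.8% of cells against 85.8% under an even spread, and Nrn1 in 40.8% against 84.3%. Cst8 was found in 33.8% against 61.6%, and Snhg11 in 26.9% against 46.1%. Each gene was thus carried by fewer cells, with more UMIs each, than an even spread gives.

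The concentration was greatest for Bex4. The 10% of Sftpc-high cells with the most Bex4 UMIs held 91.0% of them, and 235 cells with at least 8 UMIs, 2.90% of the class, held 48.4%. For Bex2 the corresponding 10% held 51.3%, and 1690 cells with at least 8 UMIs held 75.7%. The highest count in 1 cell was 74 for Bex2, 37 for Bex4, 85 for Cox6a2, 63 for Nrn1, 27 for Snhg11 and 35 for Cst8. After each cell was thinned to 5000 UMIs, Bex2 was found in 40.8% (39.7 to 41.9) of 7835 Sftpc-high cells and in 2.29% (1.60 to 3.17) of 1529 comparison cells. The thinned share was 27.1% for Cox6a2, 26.5% for Nrn1, 16.4% for Cst8, 12.5% for Snhg11 and 8.78% for Bex4 in Sftpc-high cells. In comparison cells it ran from 0.131% for Cst8 to 3.27% for Nrn1. Cells marked by genes of other lineages also held some UMIs. A Bex2 UMI was found in 7.69% of 78 immune-marked cells, where it was at 12.0 CPM, in 4.18% of 239 fibroblast-marked cells and in 1.56% of 128 endothelial-marked cells, at median depths of 23684, 14631 and 9316 UMIs. The Bex2 share of 6.71% in comparison cells lay within this range. Endothelial-marked cells held Nrn1 in 2.34% and none of Bex4, Snhg11 or Cst8. Taken as up to 3 counts, a count of 0 allows a share of up to 2.34% of cells with a UMI there. The exact interval for that share reaches 2.84%.

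Among Sftpc-high cells, all 6 genes were higher where Lyz2 was higher. The ratio of Lyz2-high to Lyz2-reduced cells was at least 2 for 4 of 6 genes, against 0.578% of 11772 genes in the same direction. The median log2 ratio of all genes was -0.23 in this split, and measured from that median 6 of 6 genes passed, as did 1.11% of all genes. The count was 1 (Cst8) with a Lyz2 limit of 200, 2 (Nrn1 and Cst8) among Stk11 cells alone, and 3, without Bex4, with the Sftpc minimum at 1000. Bex2 was at 287 CPM (284 to 291) in Lyz2-high and 116 (114 to 118) in Lyz2-reduced cells, 2.48-fold higher (2.43 to 2.54). Cst8 was at 68.5 against 29.2, 2.35-fold higher (2.24 to 2.46). Nrn1 was at 156 against 67.2, 2.32-fold higher (2.25 to 2.39). Bex4 was 2.01-fold higher (1.90 to 2.12), at 40.8 against 20.3 CPM. Cox6a2 and Snhg11 fell just short of 2-fold, at 1.96 (1.91 to 2.02) and 1.90 (1.80 to 2.01). None of the 6 was higher in Lyz2-reduced cells. The genes were not absent there: the Lyz2-reduced cells remained above the comparison cells by 27.0-fold for Bex2, 8.82-fold for Nrn1 and 101-fold for Cst8.

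Levels were then read over bins of Lyz2. Bex2 was at 63.7 CPM in the 2396 cells under 25 Lyz2 UMIs per 10000, at 144 in the next 754 cells and at 187 in the 1354 cells from 50 to 100. It was at 272 from 100 to 200, 302 from 200 to 400 and 319 in the 159 cells at 400 or more. Cst8 also rose at every step, from 16.0 to 89.3 CPM, and Snhg11 from 12.8 to 55.1. Cox6a2 and Nrn1 peaked in the 1500 cells from 200 to 400, at 170.4 and 164 CPM. The share of GFP cells fell from 36.5% to 11.3% and that of Stk11 cells rose from 19.9% to 49.1% across the same bins, so both splits changed together. In the 252 cells just below the Lyz2 limit of 100, Bex2 was at 196 CPM, and in the 246 just above it at 227. Nrn1 and Snhg11 were also higher just above that limit, Nrn1 at 137 against 115, while Bex4, Cox6a2 and Cst8 were lower just above it, at 30.6 against 35.2, 126 against 141 and 39.9 against 52.4 CPM.

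**Figure D3:**
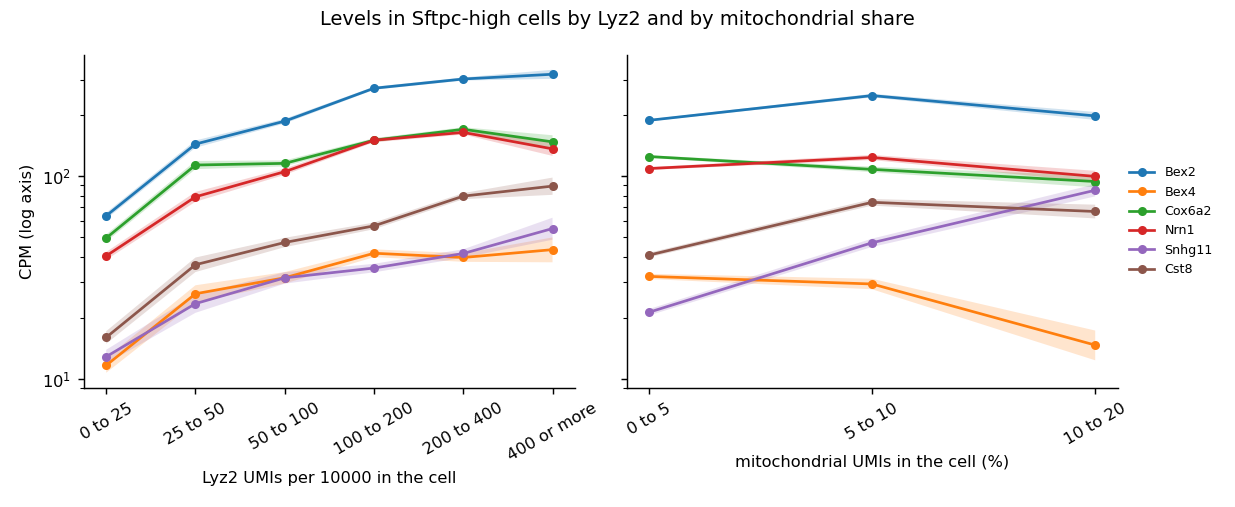
Levels of the 6 genes in Sftpc-high cells, in CPM on a log axis, by the Lyz2 UMIs per 10000 of the cell (left) and by its mitochondrial share in percent (right). Lines join bin totals and bands are exact Poisson intervals; Bex2 climbs from 63.7 to 319 with Lyz2, and Snhg11 climbs from 21.3 to 85.2 with mitochondrial share.

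The levels also followed Sftpc itself. Between Sftpc-high cells with 500 to 1000 Sftpc UMIs per 10000 and those with 2000 to 3000, Bex2 went from 61.9 to 335 CPM, Cox6a2 from 40.1 to 171 and Snhg11 from 17.4 to 46.8. The first of these bins held 1531 cells with a median of 12673 UMIs and the last 1003 cells with a median of 23593. A further 7 cells had 3000 or more, with a median of 6184 UMIs. They had 120 Bex2 CPM (48.2 to 247), 137 Cox6a2 CPM and no Snhg11 UMI.

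Stk11 cells had more of 5 of the 6 genes than GFP cells by at least 2-fold, against 1.3% of 11812 genes. Measured from the median log2 ratio of all genes, -0.20, it was again 5 of 6, against 1.97%. With the Sftpc minimum at 1000 the count was 4, without Nrn1. Cox6a2 showed the widest gap, with 197 CPM (194 to 200.1) in Stk11 cells and 32.4 (31.0 to 34.0) in GFP cells, a ratio of 6.07 (5.78 to 6.38). Of 11812 genes, 17 had a larger ratio. Bex2 was at 290.3 against 70.4 CPM, a ratio of 4.12 (3.98 to 4.27), and Bex4 at 42.7 against 11.8, a ratio of 3.63 (3.33 to 3.95). Snhg11 differed by 2.33-fold (2.15 to 2.51) and Nrn1 by 2.12-fold (2.05 to 2.21). Cst8 was the exception, at 51.8 against 39.7 CPM and a ratio of 1.30 (1.24 to 1.37). Cells with neither transcript had levels between those of GFP and Stk11 cells for the other 5 genes, Bex2 at 221 and Cox6a2 at 111, and 53.6 for Cst8.

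Because 59.4% of Stk11 cells and 29.8% of GFP cells were Lyz2-high, both splits were crossed into 4 strata. The difference between Stk11 and GFP cells stayed large within each Lyz2 class for Cox6a2, Bex2 and Bex4. The strata were not matched for Lyz2 or Sftpc. In Lyz2-reduced cells the medians per 10000 were 33.4 Lyz2 and 1516 Sftpc in Stk11 cells, and 10.8 and 1186 in GFP cells. In Lyz2-high cells they were 200 and 1788 in Stk11 cells, and 175 and 1523 in GFP cells. The part of these differences in the ratios was not tested. Cox6a2 was at 217 CPM in the 1602 Lyz2-high Stk11 cells and 43.3 in the 614 Lyz2-high GFP cells, a ratio of 5.02 (4.68 to 5.40). In Lyz2-reduced cells it was at 163 in 1096 Stk11 cells and 26.9 in 1448 GFP cells, a ratio of 6.04 (5.64 to 6.48). Bex2 showed ratios of 3.11 (2.97 to 3.25) in Lyz2-high and 3.93 (3.72 to 4.14) in Lyz2-reduced cells. Bex4 showed 2.54 (2.27 to 2.86) and 4.20 (3.69 to 4.80). Nrn1 narrowed to 1.68 and 1.82, and Snhg11 was at 1.81 and 2.24.

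Cst8 followed Lyz2 and hardly followed the transcript class. In Lyz2-high cells it was at 65.5 CPM in Stk11 cells and 69.3 in GFP cells, a ratio of 0.945 with an interval of 0.885 to 1.01 that includes 1. On the log2 scale this is -0.08, while the median of all genes was -0.11 there, so its sign depends on the scaling. In Lyz2-reduced cells it was at 28.8 and 24.7, a ratio of 1.17 (1.06 to 1.29). Its ratio between Lyz2 classes was the largest of the 6 in both transcript classes, 2.81 (2.58 to 3.06) among GFP cells and 2.27 (2.10 to 2.46) among Stk11 cells. Cox6a2 showed the opposite balance, with Lyz2 ratios of 1.61 (1.46 to 1.76) among GFP cells and 1.34 (1.29 to 1.39) among Stk11 cells. Among Stk11 cells the Lyz2 ratio was 1.79 for Bex2 and 1.36 for Bex4, and among GFP cells 2.27 and 2.24. Nrn1 kept ratios of 2.18 and 2.01 between Lyz2 classes in GFP and Stk11 cells. No mouse could be named for any cell, so differences among mice and between transcript classes cannot be told apart.

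**Figure D4:**
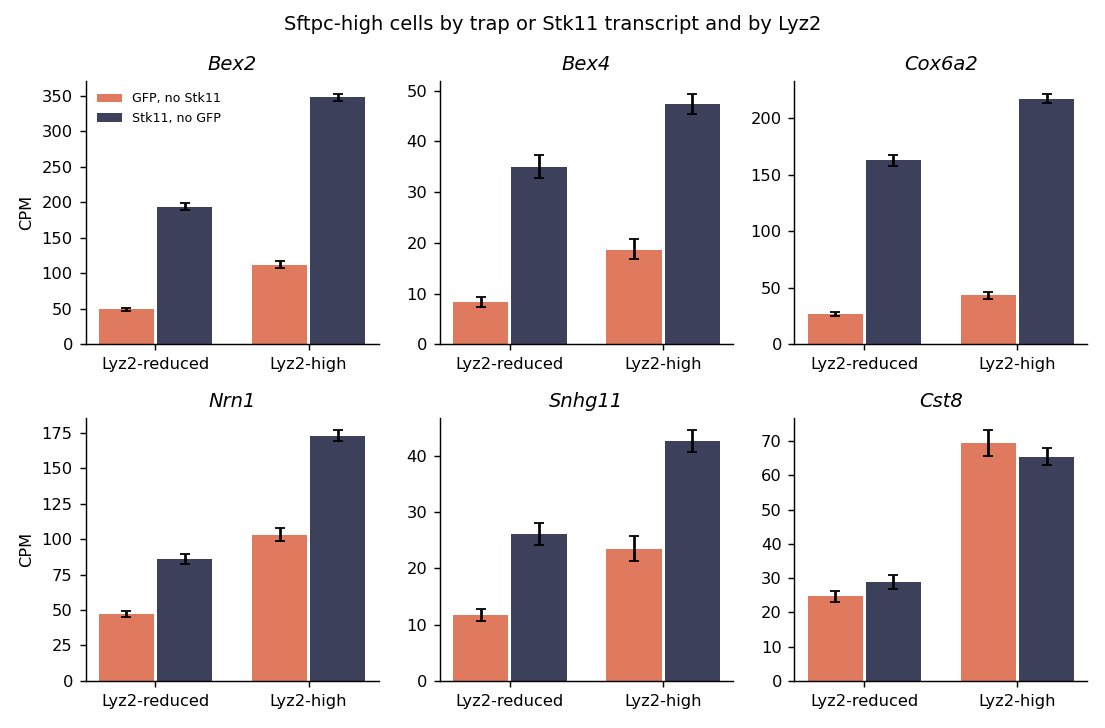
Levels of the 6 genes, in CPM, in Sftpc-high cells split by Lyz2 (x axis) and by transcript class (colors). Bars are class totals and whiskers exact Poisson intervals; the Stk11 bars stand above the GFP bars for every gene except Cst8 in Lyz2-high cells, where they are 65.5 and 69.3.

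Marker genes of other states and cell types moved with both splits. Over all genes, 4.03% were at least 2-fold lower in Lyz2-high cells and 4.65% in Stk11 cells. Of 10 ATI markers 4 were at least 2-fold lower in Lyz2-high cells, Hopx at 48.5 against 152 CPM, and 1, Cav1, in Stk11 cells. Of 7 transitional markers Krt7 and Cldn4 were 2-fold lower in Lyz2-high cells, and Krt19 and Krt7 in Stk11 cells, Krt7 at 149 against 369 CPM. These markers belong to the states in which the 6 genes were low. The 5 cycling markers, Mki67 and Top2a among them, were all at least 2-fold lower in Lyz2-high and in Stk11 cells, with Top2a at 4.80 CPM in Stk11 and 27.1 in GFP cells. Of 6 immune markers, 3 passed the count minimum and all 3 were higher in Lyz2-high cells, although at low levels (Tyrobp 2.45 against 0.193 CPM). The 4 fibroblast markers were all lower in Lyz2-high cells, and 2 of them, Col1a2 and Mgp, were higher in Stk11 cells, Mgp at 34.7 against 10.8 CPM. The club cell genes Scgb1a1 and Scgb3a2 were lower in Lyz2-high and higher in Stk11 cells. The median summed level of the immune, fibroblast and cycling lists was 0 in every one of these cell classes. The part of these cells or RNAs in the ratios was not tested. With cells past a minimum for endothelial, fibroblast or immune markers left out, 4 of 6 and 5 of 6 genes passed 2-fold in the Lyz2 and transcript splits.

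Co-detection is given as a fold, the share of cells with 1 gene among cells with the other over that among cells without it, and the fold depends on which gene is taken as given. Among thinned Sftpc-high cells, Bex4 was found in 16.6% (15.3 to 17.9) of 3197 cells with Bex2 and in 3.39% (2.88 to 3.95) of 4638 without it, a fold of 4.91. Of 688 cells with Bex4, 77.2% also had Bex2, and of 7147 without it 37.3%, a fold of 2.07. Both were the highest folds of any pair in these cells. Taking the gene named first as given, Bex2 with Nrn1 was at 1.89 and turned around at 1.61, Snhg11 with Cst8 at 1.83 and 1.90, and Bex2 with Cox6a2 at 1.82 and 1.58. Nrn1 was found in 36.8% of cells with and 19.5% of cells without Bex2. Of 15 pairs, 13 had a fold above 1, and with the first gene as given the exceptions were Bex4 with Cst8 at 0.956 and Nrn1 with Snhg11 at 0.972.

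Within the 4 strata, the fold of Bex4 given Bex2 was 3.08 in Lyz2-high Stk11 cells, 3.47 in Lyz2-reduced Stk11 cells, 5.21 in Lyz2-reduced GFP cells and 7.19 in Lyz2-high GFP cells. Turned around, the fold of Bex2 given Bex4 ran from 1.41 to 3.49, and in Lyz2-high Stk11 cells its 1.41 was below the 1.70 of Nrn1 given Bex2. In Lyz2-high GFP cells 34 of 173 cells with Bex2 and 12 of 439 cells without it had Bex4. Nrn1 given Bex2 ran from 1.52 to 2.00 over the strata. Cox6a2 given Bex2 ran from 0.786 to 1.27, below its 1.82 over all Sftpc-high cells in every stratum. Snhg11 given Bex4, Cox6a2 or Nrn1 had folds under 1 in Lyz2-high Stk11 cells, at 0.576, 0.681 and 0.642. Over all 4 strata, 5 of 15 pairs were above 1 throughout: Bex2 with Bex4, with Nrn1 and with Cst8, Bex4 with Nrn1, and Nrn1 with Cst8. Not all of these folds were clear of 1. In Lyz2-high Stk11 cells Cst8 was found in 24.3% (20.9 to 27.9) with Nrn1 and 23.3% (20.7 to 26.0) without it. In Lyz2-high GFP cells Nrn1 was found in 34.8% (21.4 to 50.2) with Bex4 and 28.3% (24.6 to 32.2) without it. There Cst8 was found in 22.5% (16.5 to 29.5) with Bex2 and 19.1% (15.6 to 23.1) without it.

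**Figure D5:**
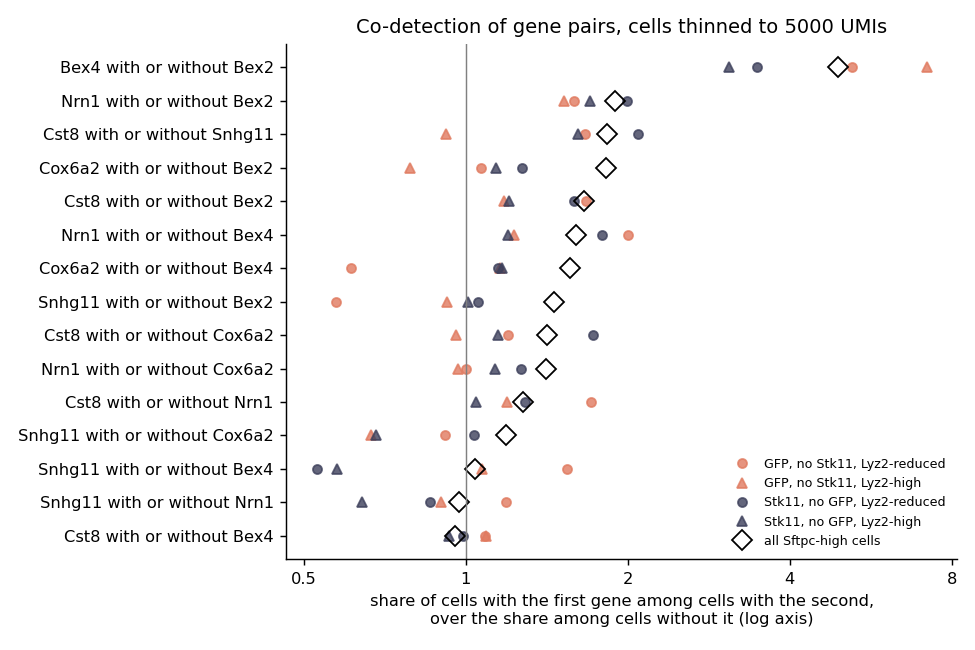
Co-detection of each of 15 gene pairs in Sftpc-high cells thinned to 5000 UMIs, as the share of cells with 1 gene among cells with the other, over the share among cells without it (log axis). Open diamonds are all Sftpc-high cells and filled points the 4 strata; Bex4 among cells with Bex2 is at 4.91, with strata from 3.08 to 7.19, and with Bex4 as the given gene, not drawn, the fold is 2.07.

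Bex2 also rose with the number of Bex4 UMIs in a cell. In the 6887 Sftpc-high cells with no Bex4 UMI, Bex2 was at 155 CPM and was found in 52.2% of cells. With 1 Bex4 UMI it was at 281, with 2 to 3 at 353, with 4 to 7 at 467 and with 8 or more at 602 CPM, and in this last set of 235 cells 97.4% had Bex2. The share of Lyz2-high cells rose over the same sets from 41.7% to 72.8%, and the median depth from 20901 to 28910 UMIs.

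Counting how many of the 6 genes a cell held gave the same direction as the levels in the main contrasts. After thinning, 3169 of 7835 Sftpc-high cells, 40.4% (39.4 to 41.5), held at least 2, and 8 of 1529 comparison cells, 0.523% (0.226 to 1.03). Without thinning these shares were 65.4% and 2.92%. The share was 57.5% (55.8 to 59.1) in Lyz2-high and 26.3% (24.9 to 27.6) in Lyz2-reduced cells. It was 56.3% (54.4 to 58.2) in Stk11 and 17.5% (15.9 to 19.3) in GFP cells. Over the strata it ran from 11.2% in Lyz2-reduced GFP cells to 66.1% in Lyz2-high Stk11 cells. Before thinning, 58 Sftpc-high cells held all 6 genes, 42 of them Stk11 cells and none of them GFP cells.

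Snhg11 had a higher level in fibroblast-marked than in Sftpc-high cells. It was at 110.1 CPM (99.8 to 121) in the 239 cells with at least 20 UMIs per 10000 of fibroblast markers, above its 29.7 in Sftpc-high cells, and was found in 36.4% of them. The other 5 genes were at most at 2.64 CPM there. In the 128 endothelial-marked cells no Snhg11 UMI was found, and 3 were found in the 78 immune-marked cells. Among Sftpc-high cells it was at 38.4 CPM in the 269 cells under 5000 UMIs and at 69.6 from 5000 to 10000 UMIs, and then lower at each step of depth down to 20.2 in cells with 40000 or more. From 5000 to 10000 and at 40000 or more UMIs, Bex4 was at 17.8 and 22.9 CPM and Cox6a2 at 76.2 and 124, while Bex2 was at 172 and 158 and Cst8 at 47.7 and 35.9. Snhg11 was at 21.3 CPM in cells under 5% mitochondrial UMIs, at 46.9 from 5% to 10% and at 85.2 in cells with 10% or more. Over the same bins Cst8 was at 40.7, 74.3 and 66.9 and Bex4 at 32.0, 29.3 and 14.6 CPM. Bex2 was at 189 in the lowest and 198 in the highest of these bins, and above both in the middle one. The transcripts most similar to Snhg11 over Sftpc-high cells included 3 mitochondrial ones, mt-Nd5 (Pearson's r 0.24), mt-Nd4l and mt-Nd2. The part of RNA quality in the level of Snhg11 was not tested.

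Relatives of these genes were counted by list. Over all genes, 6.57% were at least 2-fold higher in Sftpc-high than comparison cells, 0.578% in Lyz2-high and 1.3% in Stk11 cells. At least 2-fold lower were 15.9%, 4.03% and 4.65%. Counts at or near 0 in lists this short do not set the relatives apart from other genes. Of 10 further Bex and Tceal genes, 6 passed the count minimum, and 0 of 6 were at least 2-fold higher in Sftpc-high than comparison cells, in Lyz2-high cells or in Stk11 cells. Bex3 was at 209.96 CPM in Sftpc-high and 176 in comparison cells, and Tceal9 at 562 and 411. Tceal3 turned the other way, at 0.786 CPM in Stk11 and 7.48 in GFP cells. Of 15 further cytochrome c oxidase subunit genes 14 passed, and none was 2-fold higher or lower in the Lyz2 or transcript splits. In the contrast of Sftpc-high with comparison cells, Cox4i2 was 2-fold higher, at 17.1 against 5.35 CPM, and Cox6b2 2-fold lower, at 10.3 against 26.5. Cox6a1, the widespread form, was at 234 CPM in Stk11 and 269 in GFP cells. Of 9 muscle genes 1, the cardiac myosin gene Myh6, passed, at 5.62 CPM in Sftpc-high and 6.24 in comparison cells and at 6.60 in Stk11 and 4.40 in GFP cells, with Actc1 and Mb at 0 UMIs and Ckm at 0.263 CPM in Sftpc-high cells. Of 9 other cystatin and stefin genes only Cst3 and Cstb passed, with Cst3 at 420.3 CPM in Sftpc-high and 469.7 in comparison cells and Cstb 2-fold lower in Sftpc-high cells, at 287 against 574. Of 16 other snoRNA host genes looked for, 5 had a row, and none of the 5 was 2-fold different in any contrast, Snhg12 at 43.2 against 41.2 CPM.

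Markers of neuronal and neuroendocrine cells were at or near 0. Ncam1 and Neurod1 had 0 UMIs in Sftpc-high cells, as did the neuronal markers Elavl4 and Gap43, and 1 of 12 neuroendocrine and 1 of 8 neuronal markers reached 1 CPM. Neuritin's relative Nrn1l and the p75 receptor Ngfr, a known partner of Bex proteins, were at 0.086 and 0.043 CPM. The CREB and CRTC factors lie downstream of the LKB1-regulated kinases, and a list of 12 genes held their targets and the coactivator gene Crtc2. Of these 12, 0 were 2-fold higher and 1, Pde4b, was 2-fold lower in Stk11 cells, against 1.3% and 4.65% of all genes. For a list this short, these counts lie near the shares over all genes. Fos was at 2734 CPM in Stk11 and 2877 in GFP cells, and Nr4a1 at 102 and 186. Imprinted genes of the Dlk1 locus differed from the 6 genes: Dlk1 was 2.59-fold higher in Lyz2-high cells like them, but was at 299.7 CPM in Stk11 and 715 in GFP cells.

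Over the 8104 Sftpc-high cells and 12407 genes, the most similar pattern differed by gene, as Pearson's r between log levels in cells that share libraries and differ in depth. For Bex2 the leading genes were Nupr1, a stress-induced chromatin protein (0.46), Lyz2 (0.39), Bex4 (0.38), the carboxylesterase Ces1d (0.37) and Selenop (0.36). For Bex4 the leading genes were Bex2 (0.38) and its cluster neighbors Tceal8 (0.25) and Bex1 (0.22), followed by Tpt1, and no other gene reached 0.2. For Cox6a2 they were Atf5 (0.52), Nupr1 (0.44) and Asns (0.37), with Rplp1 and Tpt1 after them. Atf5 is a stress-response transcription factor and Asns makes asparagine, and both are known targets of the amino acid response. Atf5 was at 154 CPM in Stk11 and 65.9 in GFP cells, and Asns at 60.9 and 34.0. Nrn1 was nearest to Bex2 (0.31), Lyz2, Chil1, Nupr1 and Cxcl15, and Cst8 to Scp2 (0.32), Ces1d, Nupr1, S100g and Lyz2. Snhg11 was nearest to the complement genes Hc (0.25) and C6 (0.24) besides the mitochondrial transcripts.

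Sftpc-high cells that held at least 2 of the 6 genes after thinning were then set beside the 2436 cells that held none, at median depths of 22407 and 21716 UMIs. Of the first set 64.6% were Lyz2-high, 47.4% Stk11 cells and 11.3% GFP cells, and of the second 22.5%, 17.9% and 42.9%. Of 7875 other genes, 44 were at least 2-fold higher and 196 at least 2-fold lower in cells with the genes, around a median log2 ratio of -0.20 over all genes. Nupr1 was at 914 against 226 CPM, 4.05-fold higher (3.88 to 4.22). Above 4-fold were also BC018473, Gdpd2 and the matrix protein gene Mgp, the last a fibroblast marker here, at 27.0 against 5.83 CPM. Fmo2, 6030419C18Rik, the complement gene C6, Adm2 and the lipase inhibitor G0s2 followed at 3.02 to 3.61-fold. The 4 fibroblast markers summed to 36.4 CPM in cells with at least 2 of the genes and 7.55 in cells with none, and their part in these ratios was not tested.

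On the lower side, Gkn2 was at 1.26 CPM in cells with at least 2 of the genes and 41.5 in cells with none, 32.8-fold lower (21.04 to 54.2). The cell cycle genes Cdk1, Birc5, Top2a and Ube2c were lower by 15.2, 12.9, 10.5 and 10.2-fold, and the 5 cycling markers summed to 6.88 against 63.6 CPM. Cldn4, a tight junction gene of the transitional state, was 12.4-fold lower, and Cavin2, Wfdc1, Prss22 and Gzme were 9.20 to 11.3-fold lower. ATI markers summed to 1721 against 3565 CPM, and 4 of the 6 that passed 10 CPM were 2-fold lower, while no ATII marker was 2-fold lower and 2 were 2-fold higher.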

How the data were processed

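Sorted lung tumor cells of 6 mice, 3 labelled Restored and 3 labelled NonRestored, were profiled with the 10x 3′ v3 kit. The deposited matrix holds raw UMI counts, obtained by the authors with Cell Ranger 3.0.2 on mm10 and not normalized. Here the counts of a gene were summed over a class of cells and divided by the total UMIs of that class, per 1000000 (CPM). Dividing by totals that hold much Sftpc and Lyz2 lowers all other genes in the cells rich in them. The median log2 ratio of all genes was -0.23, -0.20 and -0.40 in the 3 contrasts.

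The 6 genes, the marker and family lists and the limits were chosen with earlier results of these data known. Cells could not be assigned to mice, so mice were not compared, and barcodes were not compared between libraries. Columns of per-sample values left unused numbered 0. Intervals are exact Poisson for levels, exact conditional binomial for ratios and exact Clopper-Pearson for shares, at 95%, and cover counting error only. A count of 0 allows up to 3 counts. Genes entered a contrast with at least 20 UMIs and 1 CPM in either class. Cells were thinned to 5000 UMIs for shares and co-detection, which left out 1099 shallower cells (269 Sftpc-high, 186 comparison). Doublets were kept and no caller was run; an alternative left out the 6% of cells with the most UMIs. Named genes were the 6 genes, up to 4 per list, up to 5 per gene by correlation of at least 0.2, and 10 in each direction between cells with at least 2 and with none of the 6 genes, among genes at 10 CPM or more. An allele shared by all mice and 2 of the genes so chosen are not reported here. Gene positions came from GENCODE M21 and promoters from RefSeq. Python 3.11.15, numpy 2.4.6, scipy 1.17.1 and pandas 2.3.3 were used, and the ratio code was tested on simulated data.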

Additional observations from a re-analysis of the deposited data

How the results depend on the processing

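The share of Sftpc-high cells with at least 2 of the 6 genes, 40.4%, was 39.2% with an Sftpc minimum of 300, 45.0% with 1000, 38.9% with the overlapping cells counted in, 65.4% without thinning and 56.1% at 10000 UMIs. The count of genes 2-fold lower in Lyz2-reduced cells, 4 of 6, was 1 (Cst8) with a Lyz2 limit of 200 and 2 (Nrn1 and Cst8) among Stk11 cells, and otherwise from 3 (Sftpc minimum of 1000) to 6. The count 2-fold lower in GFP cells, 5 of 6, was 4 with an Sftpc minimum of 1000 and among Lyz2-reduced cells (both without Nrn1) and 3 among Lyz2-high cells, where the log2 ratio of Cst8 turned to -0.0823. Counts in the opposite direction were 0 throughout, and the count of 6 in Sftpc-high cells was 5 without the 1% of cells richest in each gene, where Cst8 kept no UMI in comparison cells. Of 281 single-gene log2 ratios under these alternatives, 144 lay inside the counting interval of the reported value, 136 outside it in the same direction and 1 reversed. Limits of 5% mitochondrial UMIs and of 20000 to 40000 UMIs per cell were added after seeing the data, and gave 5 or 6 of 6 for each count. No paired analysis was possible because cells carry no replicate number, and leaving out each mouse was not run for the same reason. In comparison cells the level of Cst8 rests on 10 UMIs.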
